A study of Mus musculus with 12 samples.

Results

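The genes described here are 41 genes of glycolysis and of the response to hypoxia, chosen by symbol from the table of gene counts. They matched 42 rows of the 54532 in the table, because Aldoa is listed under 2 identifiers, and all 42 rows were among the 14894 genes that passed a filter of more than 0.5 CPM (counts scaled to the library total) in 2 or more of the 12 libraries. The cells sequenced were bone marrow cells of C57BL/6 mice of wild-type (WT) genotype, grown with GM-CSF and IL-6, cytokines that drive the formation of myeloid cells, and harvested on day 5. Of the 12 libraries, 4 were of cells given the vehicle DMSO (labelled 0.1 DMSO), 4 of cells given 10 µM indole-3-propionic acid (IPA), a tryptophan metabolite made by gut bacteria, and 4 of cells given 50 µM IPA. The study describes the higher dose as above physiological levels and as lowering the viability of the cells, which these counts do not measure, and its part in the results was not tested. The libraries were bulk RNA-seq of all cells in a culture, so fewer cells of a type and less RNA per cell cannot be told apart. The labels do not say whether the 4 libraries of a group came from separate mice or cultures, and the p-values below measure only the spread between these libraries.

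Glycolysis takes up glucose, splits it to pyruvate and, where pyruvate is reduced to lactate, exports the lactate with monocarboxylate transporters. Hypoxia-inducible factors (HIF) are pairs of an oxygen-regulated alpha subunit and the constant subunit ARNT. With oxygen present, prolyl hydroxylases mark the alpha subunit for destruction. Without it, the pair accumulates and raises transcription of most genes of glycolysis, of the hydroxylases themselves and of genes for blood vessel growth, mitophagy and protein folding. Activated neutrophils and monocytes are known for a strong reliance on glycolysis. The RNA of an alpha subunit says little about its activity, because the regulation acts mostly on the protein.

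At 50 µM IPA, Hif1a RNA was higher than in both other groups, whereas 25 of the 42 rows were lower than at 10 µM and 9 were lower than with vehicle. At 10 µM, no member passed the test against vehicle, although 37 of the 42 rows had a log2 fold change above 0, as 48.2% of all genes tested did. Between 50 µM and 10 µM, 27 of the 42 rows passed edgeR's quasi-likelihood test at an adjusted p under 0.05, 2 higher (Hif1a and Pfkm) and 25 lower. Over all genes tested, 7.52% were called higher and 7.85% lower in this comparison. Against vehicle, 11 rows passed at 50 µM, 2 higher (again Hif1a and Pfkm) and 9 lower (Slc2a1, Pfkfb3, Pkm, Slc16a1, Slc16a3, Egln3, Ankrd37, Ndrg1 and Mxi1), where 7% of all genes were called higher and 6.5% lower. Between the doses, 2 rows had all 4 libraries at 50 µM above those at 10 µM and 22 had all 4 below, as 9.43% and 10.9% of all genes did (20.3% in both directions). Against vehicle the numbers were 2 above and 7 below, where 9.45% and 10.5% of all genes separated in this way (20% in both). Log2 fold changes above 0 were found in 12 rows against vehicle and in 7 between the doses, and in 51.8% and 51.4% of all genes. The median log2 fold change over the 42 rows was 0.17 at 10 µM, -0.18 at 50 µM and -0.34 between the doses, and over all genes tested it was -0.01, 0.01 and 0.01. Without vehicle replicate 4 the medians of the rows moved to 0.29 at 10 µM and -0.10 at 50 µM, and without vehicle replicate 2 that at 10 µM was 0.11. Both comparisons with vehicle share the 4 vehicle libraries, and both comparisons of 50 µM share the 50 µM libraries.

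At 10 µM the share called among all genes was 0.41% (0.329% higher and 0.0806% lower), and 9 of the 42 rows had an unadjusted p under 0.05 where 8.78% of all genes did. DESeq2 called 1 row at 10 µM, P4ha2, where it called 1.68% of all genes, and limma-voom called 0 rows and 0.423% of all genes. Group means ran in the order 10 µM, vehicle, 50 µM from high to low in 29 of the 42 rows (69.0%), an order found in 17.3% of all genes tested. Leaving out each library in turn (leave-one-out fits) gave 22 to 26 lower calls between the doses, while calls over all genes in either direction ran from 1604 to 2269 (2289 with all libraries). Against vehicle it gave between 2 and 11, while calls over all genes ran from 1248 without vehicle replicate 3 to 2689 without vehicle replicate 4 (2010 with all libraries). The lower calls of members against vehicle were 2 (Pfkfb3 and Slc16a1) without vehicle replicate 3, 3 without 50 µM replicate 2, 4 without 50 µM replicate 3 and 5 without 50 µM replicate 4.

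**Figure D1:**
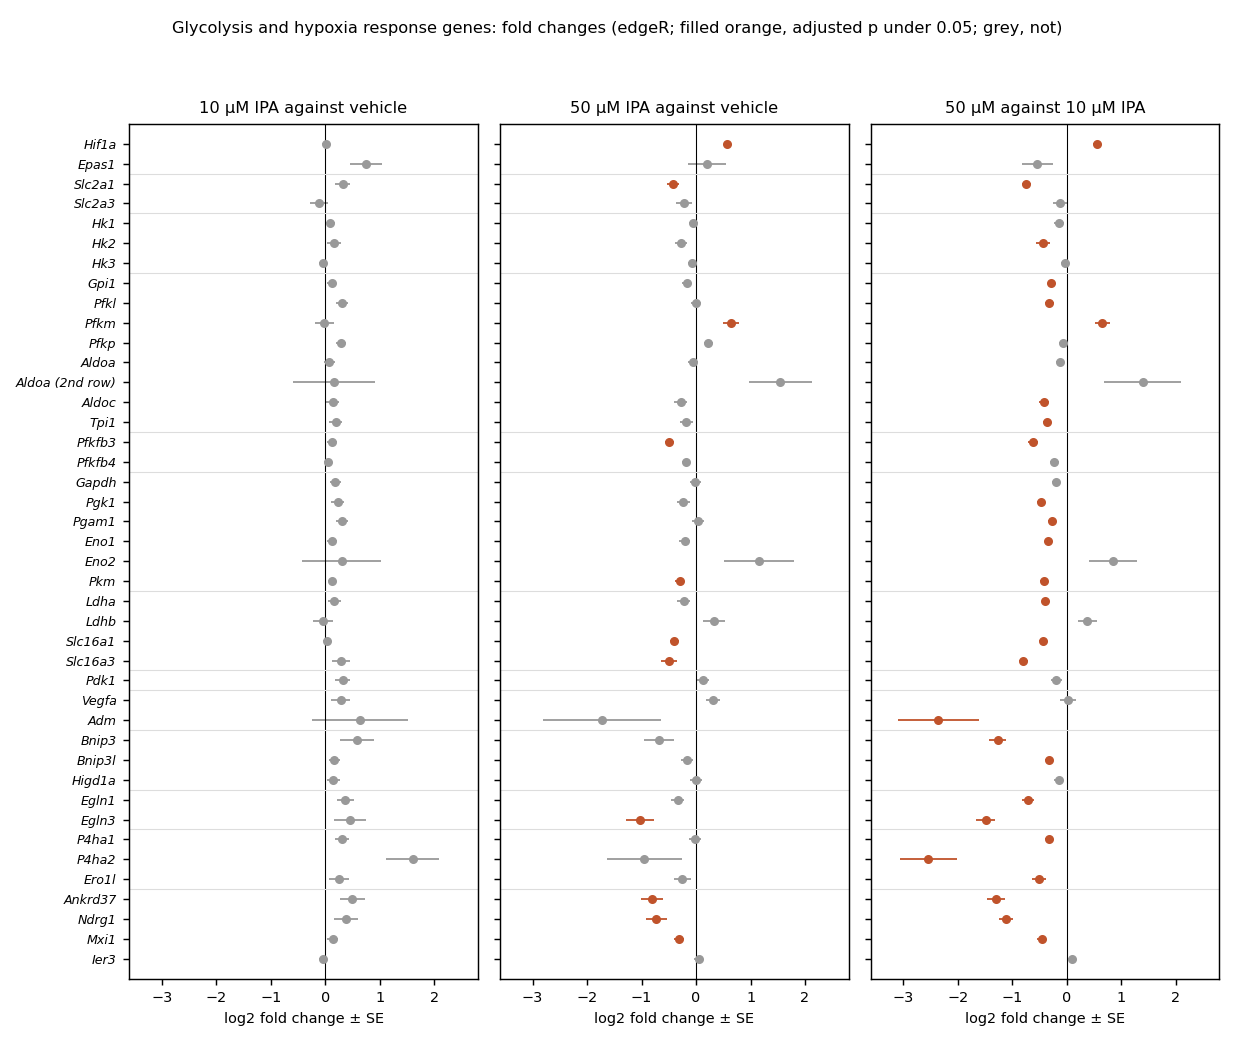
Log2 fold change of each of the 42 rows with its standard error (horizontal bars) for both doses against vehicle and for the higher dose against the lower, in the order of the functional groups, which grey lines divide. Orange points passed an adjusted p of 0.05 in edgeR's test (0, 11 and 27 rows), grey points did not, and the points lie mostly right of 0 in the first panel and left of 0 in the last.

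Each library held between 20451312 and 28038612 reads counted on genes. Markers of neutrophils, cells that these cytokines help to form, summed to 17723 to 25082 CPM over 11 genes with vehicle, 16693 to 19195 at 10 µM and 12940 to 17970 at 50 µM. Markers of erythroid cells, which fresh marrow holds in number, summed to at most 1.52 CPM over 8 genes. Slc4a1 was at 0 in every library, Hbb-bs with vehicle and Hba-a2 at 50 µM. Ly6C-high monocyte markers (5 genes) summed to 2534 to 3229 CPM with vehicle, 3673 to 4747 at 10 µM and 2213 to 2953 at 50 µM, and all 5 were called lower at 50 µM than at 10 µM and 3 lower than with vehicle. The members of this list differed at 10 µM. Ly6c2, which encodes the surface protein that names these cells, had 581 ± 105 CPM with vehicle, 535 ± 22.8 at 10 µM and 445 ± 57.0 at 50 µM (SD, n = 4 each), and Fn1, the largest part of the sum, had 1451 ± 132, 2554 ± 382 and 1696 ± 254 CPM. Macrophage markers (8 genes) summed to 1705 to 1899, 2032 to 2235 and 1735 to 1853 CPM, with 1 called higher and 5 lower between the doses. At 50 µM against vehicle, 2 were called higher and 2 lower, and 5 of 8 had a log2 fold change above 0. Csf1r, the largest part of the sum, had 939 ± 30.3 CPM with vehicle, 1002 ± 42.0 at 10 µM and 739 ± 58.1 at 50 µM (SD, n = 4 each). Adgre1 went the other way at 50 µM, with 203 ± 15.4, 215 ± 16.5 and 324 ± 10.4 CPM in the same groups. At 10 µM, 1 of the 5 Ly6C-high monocyte markers and 3 of the 8 macrophage markers were called higher than with vehicle. Of the neutrophil markers, 6 of 11 were called lower at 50 µM in each comparison. Proliferation genes (6 genes) summed to 1609 to 2395, 1624 to 2050 and 1628 to 1794 CPM, and 2 of 6 were called lower at 50 µM in each comparison. Of the neutrophil markers 9 of 11, and of the proliferation genes 5 of 6, had a log2 fold change below 0 at 10 µM. B cell markers (6 genes) summed to 19.1 to 27.2, 24.2 to 34.1 and 37.9 to 60.9 CPM, and 5 of 6 were called higher at 50 µM in each comparison. Dendritic cell markers (7 genes) summed to 692 to 751, 730.0 to 871 and 717 to 895 CPM, with 3 called higher at 50 µM than with vehicle and 2 higher than at 10 µM. By their medians, the Ly6C-high monocyte and macrophage sums ran in the order 10 µM, vehicle, 50 µM, as many members did. By their means, Ly6c2, Adgre1 and the macrophage marker Cd68 did not. The low sums of stromal (8.64, 9.02 and 4.40 CPM) and of T and NK cell markers (9.88, 11.1 and 8.59 CPM) had this order too. Of 2 stromal markers tested, 1 was called lower at 50 µM in each comparison. The neutrophil, proliferation, B cell and dendritic cell sums did not run in this order. Their part in the results was not tested.

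HIF binds DNA at elements with the core ACGTG or GCGTG, so the 250 bases before the transcription start were searched for either core on both strands. The windows come from RefSeq on GRCm38.p6 and were found for 36 of the 41 genes. Not all of them lie just upstream of the gene as GENCODE annotates it. Bases of an annotated exon were present in 17 of the 36 windows, making up most of the window in 6 (Higd1a, Pkm, Aldoa, Gpi1, Pfkfb3 and Tpi1), and the starts for Hif1a, Ankrd37 and Ldha lay 6492, 5857 and 4329 bases from the GENCODE start. The bases just after the start were found in a transcript of the same gene for 33 of the 36. A core was present in 28 of the 36 (77.8%) and in 5738 of 10314 windows of all tested genes with one (55.6%). Of the 22 windows of members called lower between the doses, 18 (81.8%) held a core, and of the 14 windows of other members 10 (71.4%) did. The members were picked as genes of this pathway, so these shares are a description without a test, and a match of letters is no evidence of binding. The windows of 5 members are shown, whose starts lie within 14 bases of the GENCODE start and which hold no exon bases, each 5′ to 3′ on the strand of its gene, with every core in capitals (CACGT and CACGC are cores on the other strand, and CACGTG holds ACGTG on both strands). Egln3 (chr12:54203875-54204124, minus strand), Pgk1 (chrX:106186850-106187099, plus strand) and Slc16a1 (chr3:104638414-104638663, plus strand) are members that fell between the doses and hold cores. Pfkm (chr15:98092339-98092588, plus strand) is a member that rose, and it holds a palindromic core. Mxi1 (chr19:53310256-53310505, plus strand) fell and holds none in this window.
Egln3: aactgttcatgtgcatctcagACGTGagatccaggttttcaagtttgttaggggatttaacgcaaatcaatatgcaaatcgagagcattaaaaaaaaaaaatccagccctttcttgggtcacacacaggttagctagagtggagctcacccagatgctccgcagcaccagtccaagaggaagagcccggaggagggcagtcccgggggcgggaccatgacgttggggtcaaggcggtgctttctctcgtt
Pgk1: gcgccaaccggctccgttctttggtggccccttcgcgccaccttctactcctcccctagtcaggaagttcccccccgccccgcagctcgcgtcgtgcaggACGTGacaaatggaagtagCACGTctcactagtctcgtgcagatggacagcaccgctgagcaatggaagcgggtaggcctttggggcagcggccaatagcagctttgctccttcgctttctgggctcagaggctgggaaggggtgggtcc
Slc16a1: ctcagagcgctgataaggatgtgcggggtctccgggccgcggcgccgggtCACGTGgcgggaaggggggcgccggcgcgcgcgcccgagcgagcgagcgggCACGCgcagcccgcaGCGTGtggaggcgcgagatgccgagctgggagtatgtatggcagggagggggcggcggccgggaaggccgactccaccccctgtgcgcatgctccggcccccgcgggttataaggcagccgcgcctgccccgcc
Pfkm: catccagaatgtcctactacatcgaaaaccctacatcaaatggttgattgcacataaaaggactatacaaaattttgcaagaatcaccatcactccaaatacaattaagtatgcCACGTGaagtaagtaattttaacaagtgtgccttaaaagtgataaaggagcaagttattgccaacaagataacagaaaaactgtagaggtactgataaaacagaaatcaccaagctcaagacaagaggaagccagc
Mxi1: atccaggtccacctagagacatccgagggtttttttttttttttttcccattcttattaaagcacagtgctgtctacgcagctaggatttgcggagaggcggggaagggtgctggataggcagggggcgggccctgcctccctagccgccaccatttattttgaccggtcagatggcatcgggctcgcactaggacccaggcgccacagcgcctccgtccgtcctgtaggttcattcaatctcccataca

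Of the HIF alpha subunits, Hif1a (ENSMUSG00000021109, chromosome 12 of GRCm38, 73901375 to 73947530), the oxygen-regulated subunit that drives most glycolytic targets, had 266, 259.8, 245 and 249 CPM in the vehicle libraries, 289, 249.6, 235 and 258 CPM at 10 µM, and 360.5, 375, 376 and 394 CPM at 50 µM. The 4 libraries at 50 µM all lay above the 8 others, and the vehicle and 10 µM libraries overlapped. With vehicle its mean was 255 ± 9.66 CPM (SD, n = 4), and it rose at 50 µM to 376 ± 13.6 CPM (SD, n = 4) (log2 fold change 0.57 ± 0.06 SE, adjusted p = 0.000102), against 258 ± 22.5 CPM (SD, n = 4) at 10 µM (log2 fold change 0.02 ± 0.07 SE, adjusted p = 0.979). Between the doses its log2 fold change was 0.55 (adjusted p = 5.01e-05). Both rises passed in all 8 leave-one-out fits. Epas1, which encodes HIF-2 alpha, lay between 0.794 and 2.61 CPM in the 12 libraries and was called in no comparison. Per kilobase of exon, Hif1a made up 99.5% with vehicle, 99.1% at 10 µM and 99.6% at 50 µM of the RNA of these 2 subunits.

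Of the prolyl hydroxylases, which mark HIF alpha for destruction, the members Egln3 and Egln1, themselves known as HIF targets, were lower at 50 µM than at 10 µM, and Egln2, which is not a member, was not called. Egln3 (ENSMUSG00000035105, chromosome 12 of GRCm38, 54178981 to 54203860) had 145, 186, 327 and 402 CPM in the vehicle libraries, 241, 339, 519 and 354 CPM at 10 µM, and 129, 101, 135 and 153 CPM at 50 µM. All 4 libraries at 50 µM lay below all 4 at 10 µM, and the highest of them lay above the lowest vehicle library. Egln3 fell between the doses (log2 fold change -1.48 ± 0.17 SE, adjusted p = 3.26e-05) and against vehicle (log2 fold change -1.03 ± 0.25 SE, adjusted p = 0.0172), the latter lost in 2 of 8 leave-one-out fits (adjusted p up to 0.0609, without vehicle replicate 3). Egln1, the main oxygen sensor of the family, had 97.0, 101, 137 and 146 CPM in the vehicle libraries, 126, 149.9, 196 and 148 CPM at 10 µM, and 99.6, 98.3, 86.2 and 93.8 CPM at 50 µM. It fell between the doses (log2 fold change -0.71 ± 0.11 SE, adjusted p = 0.000290), with no overlap, and missed the threshold against vehicle (log2 fold change -0.34 ± 0.12 SE, adjusted p = 0.0921), though not in DESeq2 (adjusted p = 0.0492), without a filter on low counts (0.0163), without vehicle replicate 1 (0.0368) or without vehicle replicate 2 (0.0333). Egln3 made up 73.4% with vehicle, 75.5% at 10 µM and 64.6% at 50 µM of the summed level per kilobase of Egln1 and Egln3.

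Among glucose transporters, Slc2a1 (ENSMUSG00000028645, chromosome 4 of GRCm38, 119108711 to 119137983), which encodes the widely used transporter GLUT1, had 301, 306, 394 and 446 CPM in the vehicle libraries, 403, 467, 529 and 399.8 CPM at 10 µM, and 289, 259, 259 and 265 CPM at 50 µM. The libraries at 50 µM were below every library of both other groups. It fell at 50 µM against vehicle (log2 fold change -0.43 ± 0.12 SE, adjusted p = 0.0275) and against 10 µM (log2 fold change -0.74 ± 0.08 SE, adjusted p = 2.38e-05), and the call against vehicle was lost in 4 of 8 leave-one-out fits (adjusted p up to 0.0934, without vehicle replicate 3). At 10 µM its log2 fold change was 0.31 (adjusted p = 0.507). Slc2a3, which encodes GLUT3, lay between 119 and 196 CPM and was called in no comparison.

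Hexokinases trap glucose in the cell by phosphorylation. Hk2, the inducible form, had 221, 234, 284 and 237 CPM in the vehicle libraries, 206, 259.8, 336 and 285 CPM at 10 µM, and 222, 214, 159 and 210.2 CPM at 50 µM. The doses overlapped, since 10 µM replicate 1 lay below 3 of the 4 libraries at 50 µM. Hk2 fell between the doses (log2 fold change -0.43 ± 0.13 SE, adjusted p = 0.0286), but the call was lost in 5 of 8 leave-one-out fits, where its adjusted p reached 0.102 without 10 µM replicate 3, and with a replicate block (0.0582). Hk1 (251 to 365 CPM) and Hk3 (238 to 288 CPM) were called in no comparison. Hk3 had the highest level of the 3 per kilobase, with 49.2% with vehicle, 46.5% at 10 µM and 50.9% at 50 µM of their sum. In CPM, Hk1 lay above Hk3 with vehicle (296 ± 12.4 against 270 ± 16.3, SD, n = 4 each). The order of these 2 thus rests on the exon lengths used, 8.532 kilobases for Hk1 and 3.682 for Hk3.

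In upper glycolysis, from glucose-6-phosphate to the triose phosphates, 4 of 8 rows were lower and 1 higher at 50 µM than at 10 µM, and 1 was higher at 50 µM than with vehicle. Tpi1, which interconverts the triose phosphates, had 761, 737, 949.8 and 1106 CPM in the vehicle libraries, 936, 1039, 1132 and 941 CPM at 10 µM, and 824, 778, 764 and 759 CPM at 50 µM. The libraries at 50 µM lay below all those at 10 µM and within the range of vehicle, and the fall between the doses was -0.37 on the log2 scale (adjusted p = 0.00164). Gpi1, which isomerizes glucose-6-phosphate, had 1162, 1143, 1377 and 1449 CPM in the vehicle libraries, 1315, 1392, 1497 and 1358 CPM at 10 µM, and 1160.2, 1127, 1079 and 1157 CPM at 50 µM. It showed the same order, with no overlap between the doses and an overlap with vehicle (log2 fold change -0.29 ± 0.06 SE, adjusted p = 0.00300 between the doses).

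Aldoc, an aldolase, had 71.0, 64.8, 90.4 and 94.7 CPM in the vehicle libraries, 83.0, 82.6, 101 and 84.9 CPM at 10 µM, and 62.8, 61.5, 61.8 and 76.3 CPM at 50 µM. It was lower at 50 µM than at 10 µM without overlap (log2 fold change -0.42 ± 0.09 SE, adjusted p = 0.00412), and not called against vehicle (log2 fold change -0.28 ± 0.12 SE, adjusted p = 0.150). Pfkl, the liver-type phosphofructokinase, lay between 196 and 260.1 CPM with vehicle, between 242 and 338 at 10 µM and between 215 and 231 at 50 µM, and fell between the doses (log2 fold change -0.32 ± 0.08 SE, adjusted p = 0.0175), with an adjusted p of 0.0623 without 10 µM replicate 3. Pfkm (ENSMUSG00000033065, chromosome 15 of GRCm38, 98092589 to 98132451), the muscle-type phosphofructokinase, went the other way, with 7.41, 8.91, 12.0 and 9.90 CPM in the vehicle libraries, 7.28, 9.25, 9.26 and 11.9 CPM at 10 µM, and 13.5, 13.8, 14.7 and 17.0 CPM at 50 µM. Every library at 50 µM lay above all 8 others. Its rise was 0.63 against vehicle (adjusted p = 0.0111) and 0.65 against 10 µM (adjusted p = 0.00481), and it passed in all 8 leave-one-out fits of each comparison. Pfkm was a minor form, with 4.72% with vehicle, 3.84% at 10 µM and 6.75% at 50 µM of the summed phosphofructokinase level per kilobase. Its exons share 18 bases with those of Senp1 on the other strand, and since the strand setting of the counting is not stated, some reads could be those of Senp1. Pfkp shares 748 exon bases with Pitrm1 on the other strand, which had 16811 counts against its 101438. Pfkp (269 to 426 CPM) and the main Aldoa row (1777 to 2408 CPM) were called in no comparison, nor was the second Aldoa row, which held 92 counts over the 12 libraries.

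Fructose-2,6-bisphosphate is the strongest activator of phosphofructokinase, and the PFKFB enzymes make and remove it. Pfkfb3 (ENSMUSG00000026773, chromosome 2 of GRCm38, 11471433 to 11554077), whose enzyme mostly makes it, had 87.9, 95.1, 107 and 94.3 CPM in the vehicle libraries, 85.6, 103, 116 and 114 CPM at 10 µM, and 68.0, 63.4, 65.2 and 75.5 CPM at 50 µM. The libraries at 50 µM lay below all 8 others, without overlap. It fell against vehicle (log2 fold change -0.49 ± 0.08 SE, adjusted p = 0.00190) and against 10 µM (log2 fold change -0.62 ± 0.09 SE, adjusted p = 0.000310), and both calls were kept in all 8 leave-one-out fits. Pfkfb4 lay between 51.1 and 72.0 CPM, and differed at 50 µM by -0.18 from vehicle (adjusted p = 0.147) and by -0.23 from 10 µM (adjusted p = 0.0629) on the log2 scale, which did not pass. Between the doses it did pass in DESeq2 (0.0415), with a replicate block (0.0399) and in 2 leave-one-out fits.

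Of the 6 enzymes of lower glycolysis, which turn triose phosphates into pyruvate, 4 were lower at 50 µM than at 10 µM and 1 (Pkm) was also lower than with vehicle. Pkm, the pyruvate kinase that makes ATP in the last step, had 2513, 2446, 2781 and 3047 CPM in the vehicle libraries, 2950.1, 2912, 3096 and 2748 CPM at 10 µM, and 2317, 2135, 2058 and 2194 CPM at 50 µM. All libraries at 50 µM lay below all 8 others. It fell against vehicle (log2 fold change -0.30 ± 0.08 SE, adjusted p = 0.0262) and against 10 µM (log2 fold change -0.42 ± 0.06 SE, adjusted p = 0.000167), and the first call was lost in 4 of 8 leave-one-out fits, where its adjusted p reached 0.0887 without vehicle replicate 3. Pgk1, which makes ATP earlier on this route, had 659, 639, 854 and 917 CPM in the vehicle libraries, 998, 919.8, 885 and 796 CPM at 10 µM, and 689, 583, 680.1 and 645 CPM at 50 µM. Its doses did not overlap, and 50 µM lay among the lower vehicle libraries (log2 fold change -0.47 ± 0.08 SE, adjusted p = 0.000594 between the doses).

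Eno1, the main enolase, had 1916, 1862, 2226 and 2489 CPM in the vehicle libraries, 2278, 2371, 2408 and 2208 CPM at 10 µM, and 1931, 1823, 1691 and 1862 CPM at 50 µM. Its libraries at 50 µM lay below all those at 10 µM, and -0.34 was its log2 fold change (adjusted p = 0.00107). Pgam1, a phosphoglycerate mutase, had 285, 272, 366 and 386 CPM in the vehicle libraries, 445, 414, 398 and 359 CPM at 10 µM, and 352, 315, 328 and 339.8 CPM at 50 µM. It fell between the doses (log2 fold change -0.27 ± 0.07 SE, adjusted p = 0.0145), with an adjusted p of 0.0566 without 50 µM replicate 2 and 0.0860 with all 12 libraries in 1 fit. Reads of Pgam1 may be split with Pgam1-ps2, a near-identical copy with 54219 counts against 102612 for Pgam1, and those of Pkm with Gm6560 (31187 against 755154). Gapdh (212 to 301 CPM) was not called by edgeR with all libraries, but passed between the doses in DESeq2 (adjusted p = 0.0434) and in 2 leave-one-out fits. Its values are uncertain, as 90 other genes in the table share at least 200 bases at 95% identity and hold more counts together (93516) than Gapdh itself (73765). Eno2 (0 to 1.1 CPM) was not called.

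Pyruvate becomes lactate through lactate dehydrogenase, and monocarboxylate transporters export it. Ldha, which favours lactate, had 1626, 1526, 1989 and 2373 CPM in the vehicle libraries, 2210.3, 2139.5, 2147 and 1909.5 CPM at 10 µM, and 1621, 1558, 1683 and 1532 CPM at 50 µM. The doses did not overlap, while vehicle spanned both (log2 fold change -0.39 ± 0.06 SE, adjusted p = 0.000512 between the doses). Slc16a3 (ENSMUSG00000025161, chromosome 11 of GRCm38, 120948480 to 120960868), the exporter MCT4 of highly glycolytic cells, had 337, 359, 509.9 and 591 CPM in the vehicle libraries, 487, 543, 656 and 516 CPM at 10 µM, and 332, 309, 316 and 307 CPM at 50 µM. Its 50 µM libraries lay below all others, the highest of them by a small margin to vehicle replicate 1. It fell against 10 µM (log2 fold change -0.80 ± 0.08 SE, adjusted p = 7.69e-06) and against vehicle (log2 fold change -0.50 ± 0.15 SE, adjusted p = 0.0392), the latter lost in limma-voom and in 5 of 8 leave-one-out fits (adjusted p up to 0.126, without vehicle replicate 3).

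Slc16a1, the exporter and importer MCT1, had 70.0, 68.7, 74.2 and 82.8 CPM in the vehicle libraries, 78.8, 79.7, 72.6 and 71.9 CPM at 10 µM, and 61.1, 51.8, 55.3 and 54.9 CPM at 50 µM. No library at 50 µM reached the level of any other group. It fell in both comparisons of 50 µM, with -0.40 against vehicle (adjusted p = 0.00720) and -0.44 against 10 µM (adjusted p = 0.000682), also in all 8 leave-one-out fits. Ldhb, which favours pyruvate, lay between 3.12 and 6.89 CPM and was not called (log2 fold change 0.38 ± 0.18 SE, adjusted p = 0.166 between the doses). Pdk1, a kinase that inhibits pyruvate dehydrogenase and a HIF target, had 92.9, 105, 137 and 136 CPM in the vehicle libraries, 120.2, 139.8, 179 and 148 CPM at 10 µM, and 124, 127, 129.8 and 133 CPM at 50 µM. Its groups overlapped and it passed no comparison (log2 fold change -0.19 ± 0.09 SE, adjusted p = 0.191 between the doses), except between the doses without 10 µM replicate 1 (0.0316).

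**Figure D2:**
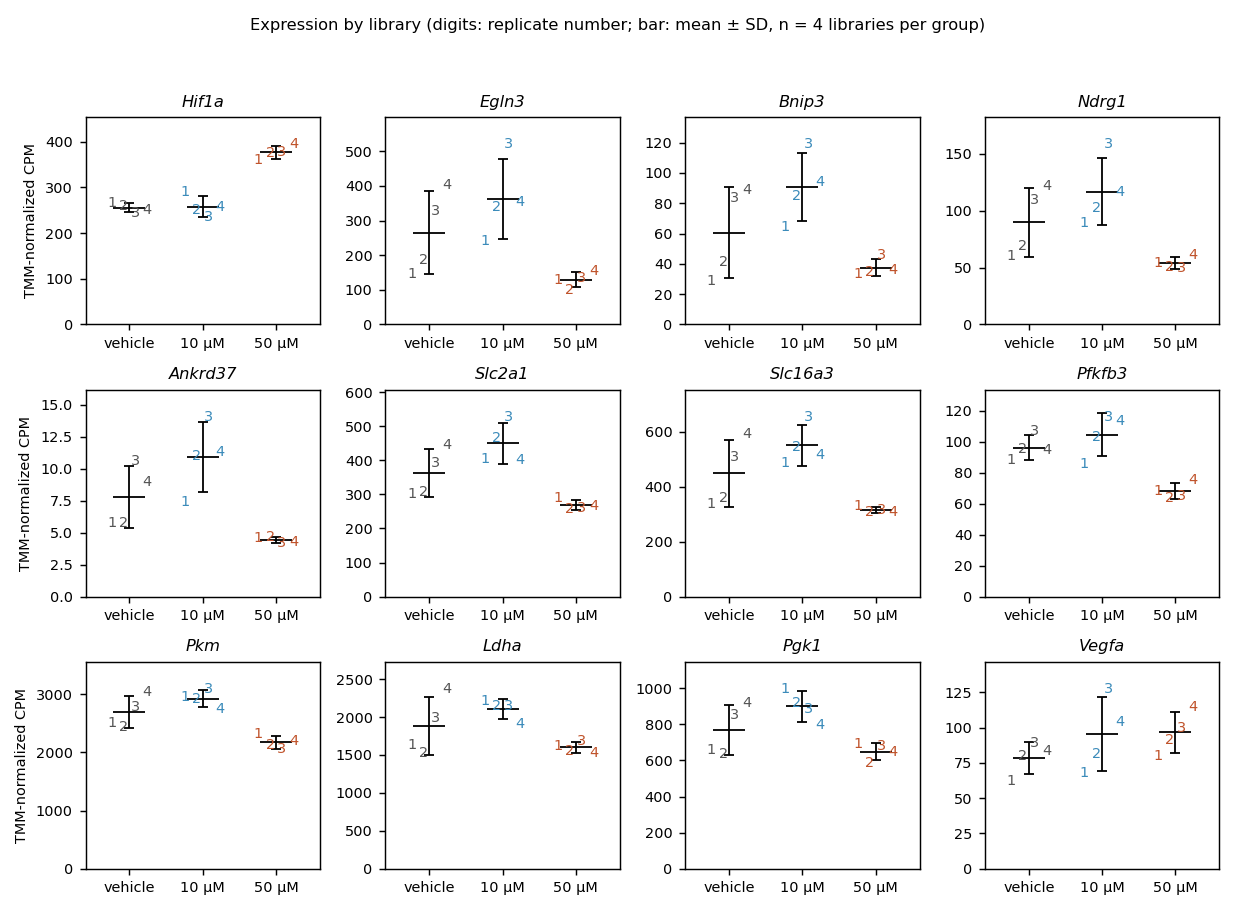
TMM-normalized CPM of 12 members in each library (vertical axes start at 0), where the digits are replicate numbers and bars show the mean ± SD of the 4 libraries of a group. Hif1a is the member whose 50 µM libraries lie above the rest, at 360.5 to 394 CPM, and Egln3, Bnip3, Ndrg1 and Ankrd37 are those where 50 µM is low and the vehicle libraries spread widely.

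Of the hypoxia targets outside glycolysis, Bnip3 (ENSMUSG00000078566, chromosome 7 of GRCm38, 138890836 to 138909519), a receptor for mitophagy, had 28.6, 41.3, 83.4 and 88.5 CPM in the vehicle libraries, 64.4, 85.0, 119 and 94.2 CPM at 10 µM, and 33.4, 34.8, 45.7 and 36.0 CPM at 50 µM. Vehicle replicates 1 and 2 lay near the 50 µM libraries and replicates 3 and 4 near those at 10 µM. Between the doses Bnip3 fell without overlap (log2 fold change -1.27 ± 0.15 SE, adjusted p = 3.03e-05), and against vehicle it did not pass (log2 fold change -0.68 ± 0.28 SE, adjusted p = 0.130), except without vehicle replicate 1, where the adjusted p was 0.0169, and without a filter on low counts (0.00291). Bnip3l, a related receptor, had 171, 175, 224 and 235 CPM in the vehicle libraries, 213, 227, 239 and 224 CPM at 10 µM, and 173, 167, 192 and 183 CPM at 50 µM. It fell between the doses without overlap (log2 fold change -0.33 ± 0.06 SE, adjusted p = 0.00253). Higd1a, a mitochondrial protein, lay between 39.4 and 61.1 CPM and was not called.

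Ndrg1 (ENSMUSG00000005125, chromosome 15 of GRCm38, 66929318 to 66969640), a stress-response gene long used as a marker of hypoxia, had 60.0, 68.6, 109 and 122 CPM in the vehicle libraries, 89.7, 103, 158 and 117 CPM at 10 µM, and 54.4, 50.2, 50.0 and 61.2 CPM at 50 µM. The doses did not overlap, and 50 µM replicate 4 lay just above vehicle replicate 1. It fell against 10 µM (log2 fold change -1.11 ± 0.14 SE, adjusted p = 4.28e-05) and against vehicle (log2 fold change -0.73 ± 0.19 SE, adjusted p = 0.0209), the second lost in 3 of 8 leave-one-out fits (adjusted p 0.0750 without vehicle replicate 3). Ankrd37 (ENSMUSG00000050914, chromosome 8 of GRCm38, 45996902 to 46005707), a HIF target of little known function, had 5.79, 5.79, 10.6 and 8.99 CPM in the vehicle libraries, 7.43, 11.0, 14.1 and 11.3 CPM at 10 µM, and 4.54, 4.65, 4.22 and 4.28 CPM at 50 µM. Its 4 libraries at 50 µM spanned a narrow range below all 8 others. It fell against 10 µM (log2 fold change -1.30 ± 0.17 SE, adjusted p = 0.000100) and against vehicle (log2 fold change -0.80 ± 0.20 SE, adjusted p = 0.0181), the latter lost in 3 of 8 leave-one-out fits (adjusted p up to 0.0665, without vehicle replicate 3). Ankrd37 shares 57 exon bases with Ufsp2 on the other strand, which had 18144 counts against its 2233. Mxi1, which opposes MYC, had 88.7, 90.1, 107 and 107 CPM in the vehicle libraries, 99.9, 97.4, 126 and 108 CPM at 10 µM, and 75.6, 74.2, 80.1 and 84.0 CPM at 50 µM. It too lay below both other groups in every 50 µM library, by -0.32 against vehicle (adjusted p = 0.0275, lost in 3 of 8 leave-one-out fits, with up to 0.102 without vehicle replicate 3) and -0.46 against 10 µM (adjusted p = 0.00149). Ier3 lay between 112 and 143 CPM and was not called.

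The enzymes of collagen hydroxylation and oxidative folding were all 3 lower at 50 µM than at 10 µM. P4ha1, a collagen prolyl hydroxylase, had 114, 129.6, 165 and 172 CPM in the vehicle libraries, 164, 178, 202 and 175 CPM at 10 µM, and 135, 145, 143 and 148 CPM at 50 µM. The 50 µM libraries lay below all at 10 µM and inside the vehicle range (log2 fold change -0.33 ± 0.07 SE, adjusted p = 0.00451 between the doses). P4ha2, its weakly expressed relative, had 0.303, 0.668, 1.66 and 1.23 CPM in the vehicle libraries, 1.70, 1.79, 4.74 and 3.34 CPM at 10 µM, and 0.782, 0.623, 0 and 0.546 CPM at 50 µM. It was the member whose 10 µM libraries all lay above the vehicle libraries, where 6.13% of all genes tested had no overlap (3.57% higher and 2.56% lower). At 10 µM its log2 fold change was 1.60 (adjusted p = 0.257 from edgeR and 0.0430 from DESeq2), and between the doses it fell by 2.54 on the log2 scale (adjusted p = 0.00366). The 12 libraries held 423 counts of P4ha2 in all. Ero1l, an oxidase for protein folding, had 404, 488, 674 and 692 CPM in the vehicle libraries, 497, 628, 871 and 692 CPM at 10 µM, and 437, 443, 459.7 and 551 CPM at 50 µM. It fell between the doses although 50 µM replicate 4 lay above 10 µM replicate 1 (log2 fold change -0.50 ± 0.13 SE, adjusted p = 0.0134). With all 12 libraries in 1 fit, the calls of P4ha1 (adjusted p = 0.0506) and Ero1l (0.0566) were lost.

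Of the secreted targets, Vegfa, the vascular growth factor, ranged from 62.0 to 88.9 CPM with vehicle, from 68.1 to 128 at 10 µM and from 80.1 to 115 at 50 µM. It passed in no comparison, with log2 fold changes of 0.31 against vehicle (adjusted p = 0.115) and 0.02 between the doses (adjusted p = 0.945). Adm, the vasodilator adrenomedullin, had 0, 0.0371, 0.583 and 0.716 CPM in the vehicle libraries, 0.181, 0.629, 0.790 and 0.458 CPM at 10 µM, and 0.0977, 0.220, 0 and 0.0420 CPM at 50 µM. It rested on 90 counts over all libraries, and its call between the doses (log2 fold change -2.36 ± 0.74 SE, adjusted p = 0.0427) was lost in 6 of 8 leave-one-out fits, where its adjusted p reached 0.122 without 10 µM replicate 3. It was also lost in limma-voom (0.0571), with all 12 libraries in 1 fit (0.130) and with a replicate block (0.0618), and DESeq2 gave it no adjusted p.

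**Figure D3:**
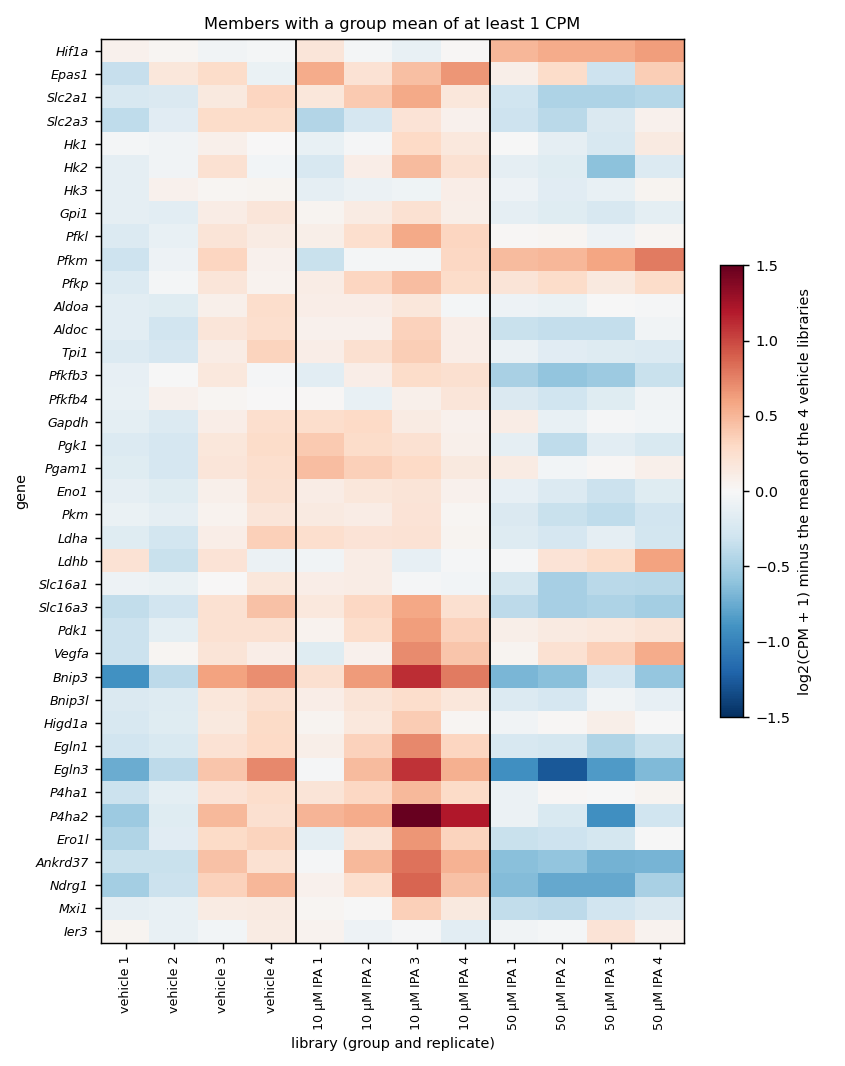
Log2(CPM + 1) of each member row with a group mean of at least 1 CPM, in each of the 12 libraries (columns), minus the mean of the 4 vehicle libraries. Colours run from -1.5 to 1.5 and values beyond are shown at the end colour. Vehicle replicates 1 and 2 are mostly blue and 3 and 4 mostly red, 10 µM replicate 3 is the reddest column, and Hif1a and Pfkm are red at 50 µM in all 4 libraries.

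Members varied more within the vehicle group than most genes did. In 33 of the 42 rows (78.6%), vehicle replicates 3 and 4 both lay above replicates 1 and 2, an arrangement noticed after the values were seen, and 25.3% of all genes tested had it. Vehicle replicate 1 was the lowest of its group in 26 rows (61.9%, and 21.3% of all genes tested). Replicate 4 was the highest in 25 (59.5%, and 34.1% of all genes). At 10 µM replicate 3 was the highest in 29 (69.0%, and 21.4% of all genes). The median coefficient of variation over the 42 rows was 18.1% with vehicle, 12.4% at 10 µM and 6.78% at 50 µM, against 12.96%, 11.1% and 11.1% over all genes tested. The coefficient was larger with vehicle than at 50 µM in 34 rows (81.0%), as in 57.5% of all genes. Of 12 marker lists, 6 had vehicle replicates 3 and 4 both above 1 and 2 (Ly6C-high monocyte, macrophage, neutrophil, mast cell and basophil, T and NK cell, and erythroid cell), and 2 had them both below (proliferation and stromal cell). Ly6C-high monocyte sums were 2647, 2534, 3229 and 3216 CPM, neutrophil sums 17723, 18277, 22287 and 25082 CPM, and proliferation sums 2089, 2395, 1953 and 1609 CPM in replicates 1 to 4, and the part of cell makeup in this spread was not tested. Mitochondrially encoded genes took 0.986%, 1.28%, 0.909% and 0.674% of the counts of these 4 libraries, against 0.674% to 1.06% at 10 µM and 0.945% to 1.204% at 50 µM.

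Levels were set side by side per kilobase of exon. The length joins all annotated exons of a gene and may exceed that of the transcripts present, which limits these ranks and shares. With vehicle, Aldoa (697 ± 103 CPM per kilobase, SD, n = 4), Ldha (568 ± 116), Pkm (539 ± 55.0) and Eno1 (395 ± 54.2) were the highest of the 42 rows. In this order, Aldoa overlapped with Ldha and Ldha with Pkm between libraries, and every library of Pkm lay above every library of Eno1. Eno2 (0.0805 ± 0.0592) was the lowest. Gapdh (59.5 ± 8.92) had rank 15, which is uncertain because of its many near-identical copies. At 50 µM the values were 667 ± 22.5 for Aldoa, 483 ± 20.4 for Ldha, 435 ± 21.9 for Pkm and 339.6 ± 18.7 for Eno1. Among the forms of each step, Aldoa made up 96.6% with vehicle, 96.5% at 10 µM and 97.1% at 50 µM of the summed aldolase level, and Ldha 99.5% with vehicle, 99.6% at 10 µM and 99.3% at 50 µM of that of lactate dehydrogenase. Slc16a3 made up 83.0% with vehicle, 85.7% at 10 µM and 82.5% at 50 µM of the 2 lactate transporters.

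**Figure D4:**
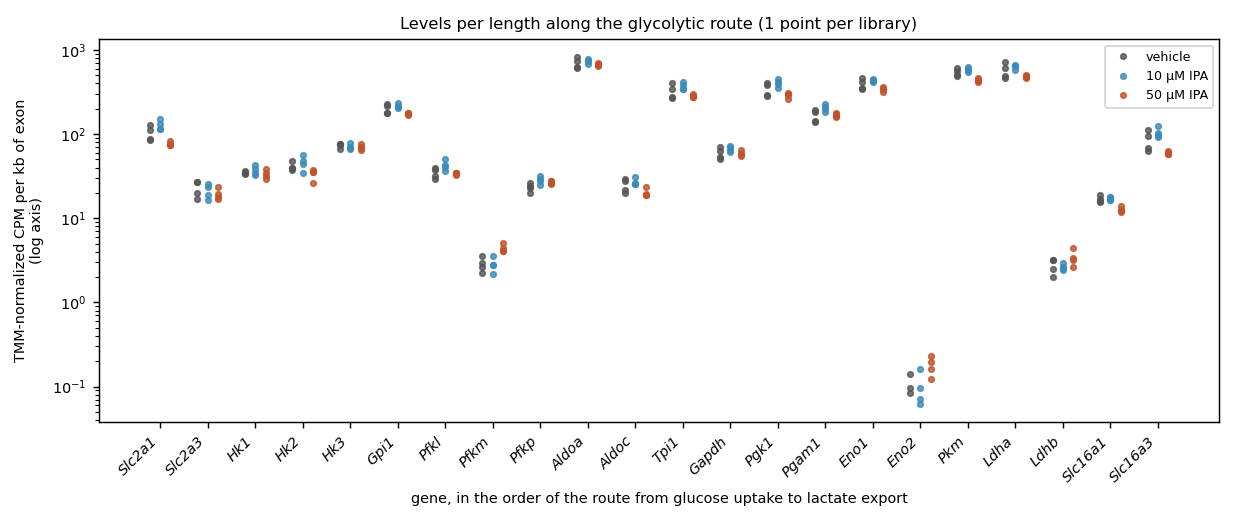
TMM-normalized CPM per kilobase of exon (log axis) for 22 members in the order of the route from glucose uptake to lactate export, with 1 point for each library of the vehicle (grey), 10 µM (blue) and 50 µM (orange) groups. A library with 0 counts of Eno2 is not drawn. Aldoa, Ldha, Pkm and Eno1 are highest, and Pfkm is a form of low level whose 50 µM points lie above the rest.

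Other genes of the same pathways were counted from lists without members. At 10 µM edgeR called 0 of their tested genes. An unadjusted p under 0.05 was found for 6 of 14 further hypoxia targets and 1 of 8 genes of the pentose phosphate pathway. It was also found for 1 of 11 genes for the entry of pyruvate into mitochondria and its oxidation, and for 0 in the other lists. Of 14 tested further hypoxia targets, 3 were higher and 8 lower between the doses, and 3 were higher and 5 lower at 50 µM than with vehicle. The falls included Ak4, an adenylate kinase of mitochondria (log2 fold change -1.59 ± 0.14 SE, adjusted p = 1.92e-06 between the doses), Plod2, a collagen lysyl hydroxylase (log2 fold change -2.26 ± 0.34 SE, adjusted p = 0.000325), and Kdm3a, a histone demethylase (log2 fold change -0.50 ± 0.11 SE, adjusted p = 0.00790). The rises between the doses were those of Ddit4, an inhibitor of mTORC1 (log2 fold change 0.69 ± 0.13 SE, adjusted p = 0.00171), the repressor Bhlhe40 (log2 fold change 0.40 ± 0.06 SE, adjusted p = 0.000227) and the carbonic anhydrase Car9 (log2 fold change 0.70 ± 0.19 SE, adjusted p = 0.0193).

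Of 7 partners and regulators of HIF, Cited2, which competes with HIF for a coactivator, was lower at 50 µM in both comparisons (log2 fold change -0.44 ± 0.08 SE, adjusted p = 0.00342 against vehicle). Hif3a was lower between the doses (log2 fold change -2.61 ± 0.57 SE, adjusted p = 0.00545). It rested on few counts, 4 to 11 per library at 50 µM, and its doses overlapped (0.147 to 0.537 CPM at 50 µM, 0.471 to 3.11 at 10 µM). Arnt, Vhl, Hif1an and Egln2 were not called. Of 10 tested further isozymes and transporters of glycolysis, the glucose transporter Slc2a6 was higher at 50 µM in both comparisons (log2 fold change 0.29 ± 0.08 SE, adjusted p = 0.0305 against vehicle) and Adpgk was lower than with vehicle (log2 fold change -0.32 ± 0.08 SE, adjusted p = 0.0243). In the pentose phosphate pathway, which branches from glucose-6-phosphate, 2 of 8 genes, G6pdx and Rpia, were lower at 50 µM than with vehicle (log2 fold change -0.31 ± 0.08 SE, adjusted p = 0.0152 and log2 fold change -0.39 ± 0.07 SE, adjusted p = 0.00298), and none was called between the doses, where 3 of 8 (and 29.5% of all genes tested) had an unadjusted p under 0.05.

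Of 10 genes of gluconeogenesis and glycogen, Pck2, the mitochondrial enzyme that makes phosphoenolpyruvate, rose at 50 µM to 84.9 ± 11.6 CPM (SD, n = 4), where vehicle had 31.1 ± 3.56 CPM (SD, n = 4) (log2 fold change 1.46 ± 0.11 SE, adjusted p = 3.9e-06). Glycogen synthase Gys1 (log2 fold change -0.53 ± 0.11 SE, adjusted p = 0.00300) and the branching enzyme Gbe1 (log2 fold change -0.30 ± 0.09 SE, adjusted p = 0.0270) were lower between the doses. Of 11 tested genes for the entry of pyruvate into mitochondria and its oxidation, Pdp2, a phosphatase that activates pyruvate dehydrogenase, was higher at 50 µM in both comparisons (log2 fold change 0.46 ± 0.10 SE, adjusted p = 0.00775 against vehicle). Mpc1, a subunit of the pyruvate carrier, was higher than with vehicle (log2 fold change 0.48 ± 0.14 SE, adjusted p = 0.0351). The subunits of pyruvate dehydrogenase itself, Pdha1 and Pdhb, were not called.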

How the data were processed

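RNA-seq libraries were made with a stranded mRNA kit. The authors trimmed the reads, aligned them to mm10 with HISAT2 2.2.1 and summarized them per Ensembl gene with featureCounts 2.0.1 (versions from the submitters' processing notes), and the deposited values are raw counts per gene, whole numbers without normalization or filter. The strand setting of the counting is not given in the sources used here. Groups and replicate numbers were taken from the labels. Because 10 µM replicates 2 and 3 share a title, replicate 3 was numbered by its library name.

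The 41 members, their functional groups and all other lists were chosen with earlier results of these data known. A gene was tested where 2 or more of the 12 libraries exceeded 0.5 CPM. Each pair of groups was compared on its 8 libraries with edgeR 4.0.16 (TMM, glmQLFit and glmQLFTest; R 4.3.3), with Benjamini-Hochberg adjustment over the 14894 genes tested and a threshold of 0.05. CPM values are TMM-normalized over the 12 libraries. Standard errors were derived from the fold change and its F statistic. Exon lengths and positions were taken from GENCODE M21 (GRCm38), and a length counts every base in any annotated exon of the gene. Values are given per library for members called in a comparison, at most the 4 with the smallest adjusted p of a functional group, and otherwise for the most abundant member of the group. The other members are given by range. The test was also run on simulated counts, and that outcome is not reported here. Alternatives were DESeq2 1.42.0, limma-voom (limma 3.58.1), other scalings and filters, all 12 libraries in 1 fit, a replicate block and leaving out each library. Plots were drawn with matplotlib 3.10.9.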

Additional observations from a re-analysis of the deposited data

Results flagged for a closer look

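In 3 of 126 groups of 4 libraries, 1 library lay far from the others by Dixon's ratio at its 95% level, where chance gives about 1 in 20. Pfkl had 215 CPM in 50 µM replicate 3 and 229 to 231 CPM in the other 3 libraries at 50 µM. Aldoc had 101 CPM in 10 µM replicate 3 against 82.6 to 84.9 CPM, and 76.3 CPM in 50 µM replicate 4 against 61.5 to 62.8 CPM.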

How the results depend on the processing

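DESeq2 called 1 member higher at 10 µM (P4ha2) where edgeR called 0. Leaving out each library in turn gave 0 higher and 0 lower members at 10 µM, 2 higher and between 2 and 11 lower at 50 µM against vehicle (9 with all libraries), and 2 higher and between 22 and 26 lower between the doses (25 with all libraries). Of the 11 calls against vehicle, 4 passed in every fit that left out 1 library, and of the 27 between the doses 23 did. Of the fold changes of called members under the alternatives, 560 stayed past the threshold and 45 did not, and 0 were reversed. At 50 µM against vehicle, Hk2 (adjusted p = 0.0459) and Vegfa (0.0491) passed without a filter on low counts, and Aldoc (0.0376) without vehicle replicate 2. With all 12 libraries in 1 fit, P4ha1, Ero1l, Pgam1 and Adm lost the call between the doses.

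With a replicate block, 3 members were higher and 9 lower at 50 µM against vehicle (the addition was Vegfa, adjusted p = 0.0315), 2 higher and 24 lower between the doses (Hk2 and Adm lost, Pfkfb4 gained), and 0 at 10 µM. Over all genes the same fits called 1830, 2200 and 3. The labels do not say whether the replicate numbers pair the libraries. Correlations of same-numbered libraries' deviations from their group means ran from -0.395 to 0.215. Between libraries of different numbers they reached 0.407, for 10 µM against vehicle. The study used a repeated-measures test for its flow cytometry of such cultures. A pairing in another order was not tested. Counts of Adm (90), P4ha2 (423) and Eno2 (163) over the 12 libraries limit what can be seen of these genes.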
